A study of Mus musculus with 9 samples.

Results

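Heat shock and chaperone genes were examined in the striatum of adult *Shank3* mutant mice. The set was defined by symbol and holds 10 genes, and 9 of them were found among the 15464 genes of the table and analysed here. These 9 genes are *Hspa8*, *Hspa1a*, *Hsph1*, *Dnajb1*, *Hsp90aa1* and *Hspb1* of the cytosol, and *Hspa5*, *Hsp90b1* and *Pdia4* of the endoplasmic reticulum (ER). *Hspa1b*, the close copy of *Hspa1a*, was not analysed here. All 9 passed the filter on low values (10 or more normalized counts in 3 or more libraries), as did 14239 genes in all.

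RNA-seq of striatum from male C57BL/6J mice aged 10 to 12 weeks gave 9 libraries, each from 1 mouse, with 3 WT, 3 HET and 3 KO mice. WT mice carry 2 intact *Shank3* alleles. HET (*Shank3* heterozygous) and KO (*Shank3* knockout) mice come from the *Shank3B* line, in which a group of internal exons of *Shank3* is targeted, and they have 1 and 0 intact alleles. The WT mice were littermates of the mutants. The question was whether the dosage of *Shank3*, a scaffold protein of the excitatory postsynapse, changes gene expression.

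Molecular chaperones bind unfolded proteins and help them to fold, to refold after stress or to be handed to degradation. In the cytosol, HSP70 proteins work in cycles of ATP hydrolysis with an HSP40 partner that brings the client and an exchange factor that releases ADP, and HSP90 takes over clients such as kinases and steroid receptors. Heat or misfolded protein releases the transcription factor HSF1, which binds heat shock elements and raises the inducible members strongly, whereas the ER members are raised by the unfolded protein response through other elements. In neurons these proteins also serve synaptic vesicle cycling, since the constitutive HSP70 uncoats clathrin-coated vesicles.

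The upstream sequences of 5 members are shown because they hold such elements. They come from RefSeq on GRCm38.p6, lie within 250 bases before the annotated transcript start and are written 5′ to 3′ on the strand of the gene. Capitals mark the heat shock element core, searched as GAANNTTC and TTCNNGAA, in the cytosolic genes, and in the ER genes the ER stress response element, searched on both strands as CCAAT, any 9 bases and CCACG, which contains a CCAAT box. For *Hsph1* and *Hspa5* only the element is printed, since it lies inside the gene as GENCODE annotates it, and the sequence of *Hsp90b1* ends 65 bases before the RefSeq start for the same reason.
*Hspa1a* (chr17:34972157-34972406, minus strand): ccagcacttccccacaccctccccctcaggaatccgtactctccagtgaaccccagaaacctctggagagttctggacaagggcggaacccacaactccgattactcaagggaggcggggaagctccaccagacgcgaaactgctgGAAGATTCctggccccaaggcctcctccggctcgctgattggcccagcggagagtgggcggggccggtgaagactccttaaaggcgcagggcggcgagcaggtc
*Hspb1* (chr5:135887669-135887918, plus strand): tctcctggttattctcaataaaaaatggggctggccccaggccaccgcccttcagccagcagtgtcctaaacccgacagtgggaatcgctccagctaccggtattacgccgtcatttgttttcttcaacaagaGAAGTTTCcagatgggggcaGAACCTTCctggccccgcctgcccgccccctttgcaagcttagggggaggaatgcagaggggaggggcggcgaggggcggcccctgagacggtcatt
*Hsph1* (chr5:149636362-149636369, minus strand): TTCTCGAA
*Hspa5* (chr2:34772025-34772043, plus strand): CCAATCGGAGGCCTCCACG
*Hsp90b1* (chr10:86705510-86705694, minus strand): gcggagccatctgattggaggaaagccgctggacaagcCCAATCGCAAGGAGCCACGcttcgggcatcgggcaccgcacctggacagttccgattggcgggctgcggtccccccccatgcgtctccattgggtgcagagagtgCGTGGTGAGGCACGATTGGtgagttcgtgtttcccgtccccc
A core of the GAANNTTC form was found in 6.69% of 32851 promoter windows of 250 bases and one of the TTCNNGAA form in 7.17%, so that a single core is a common match. *Hspb1* held 2 cores, and *Hspa1a* and *Hsph1* held 1 each. GAANNTTC followed at once by NNGAA was in 0.466% of windows and in 0 of the member windows. The ER stress response element was in 0.113% of windows, which were 37 windows of 35 genes, and *Hspa5* held 1 match and *Hsp90b1* held 2, 1 on each strand. The windows of *Dnajb1* and *Pdia4* held neither element. The set of windows held none for *Hspa8* and *Hsp90aa1*, so these genes were not searched. The window of *Hspa1a* differed from that of *Hspa1b* at 3 of 250 bases. A match is a string of letters and does not show binding.

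Sequence copies also bear on how reads could be assigned. Of the stretches of 1 read length in the *Hspa1a* transcript, 46.9% were identical in *Hspa1b*. The shares found in transcripts of other genes were 62.6% for *Hspa8*, 56.3% for *Hspb1* and 47.3% for *Hsp90aa1*, with Gm15459, Hsp25-ps1 and Gm12346 holding the largest part of each. For *Hsp90b1* the share was 1.21%, and it was 0% for *Dnajb1*, *Hsph1*, *Hspa5* and *Pdia4*. The values of *Hspa1a*, *Hspa8*, *Hspb1* and *Hsp90aa1* are therefore less certain than those of the other 5 members, since the estimate of abundance could split or merge such reads.

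The values are normalized counts, which the authors obtained by dividing estimated reads per gene by size factors. Their sum lay between 30830020 and 33790296 per library, and the number of reads behind a library is not known from it. HET replicate 3 and KO replicate 3 stood apart from the other 7 libraries on the first principal component (33.6% of the variance), and the values of members and list genes that moved most on leaving them out are given with and without them. *Shank3* itself had 7355 ± 1390 normalized counts in WT, 7574 ± 476 in HET and 10538 ± 283 in KO (SD, n = 3 each). These are sums over the whole gene that include untargeted exons, so they do not check the deletion. The striatal markers *Ppp1r1b* and *Drd1* lay between 12449 and 31982 and between 2369.6 and 5086 normalized counts. The marker of cortical glutamatergic neurons *Slc17a7* lay at 26609 to 43336 and exceeded *Ppp1r1b* in every library. The 2 genes were close in HET replicate 1 (26609 against 26253) and far apart in KO replicate 3 (43336 against 12449). These counts are not scaled to transcript length, and the share of cortical tissue in the libraries was not tested.

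In WT striatum the members spanned a wide range of levels. Per kilobase of the principal transcript, *Hspa8*, the constitutive HSP70, had 25428 ± 1246 normalized counts (SD, n = 3), and *Hsp90aa1*, an HSP90 of the cytosol, had 8540 ± 481. The ER HSP90 *Hsp90b1* (also called GRP94) followed with 3170 ± 212 normalized counts per kilobase, then *Hsph1*, an HSP110 exchange factor, with 2419 ± 198, and *Hspa5*, the ER HSP70 known as BiP, with 1491 ± 155. *Dnajb1*, an HSP40, had 535 ± 37.5 normalized counts per kilobase, *Pdia4*, a disulfide isomerase, 409 ± 24.6, *Hspb1*, a small heat shock protein, 164 ± 38.2, and *Hspa1a*, the stress-inducible HSP70, 120 ± 7.38. Each neighbouring pair in this order was separated, with all 3 WT libraries of the one above all 3 of the other. The ratio was smallest, 1.31, between *Dnajb1* and *Pdia4* and between *Hsp90b1* and *Hsph1*. *Hspa8* was thus by far the most abundant member and the inducible *Hspa1a* the least.

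**Figure D1:**
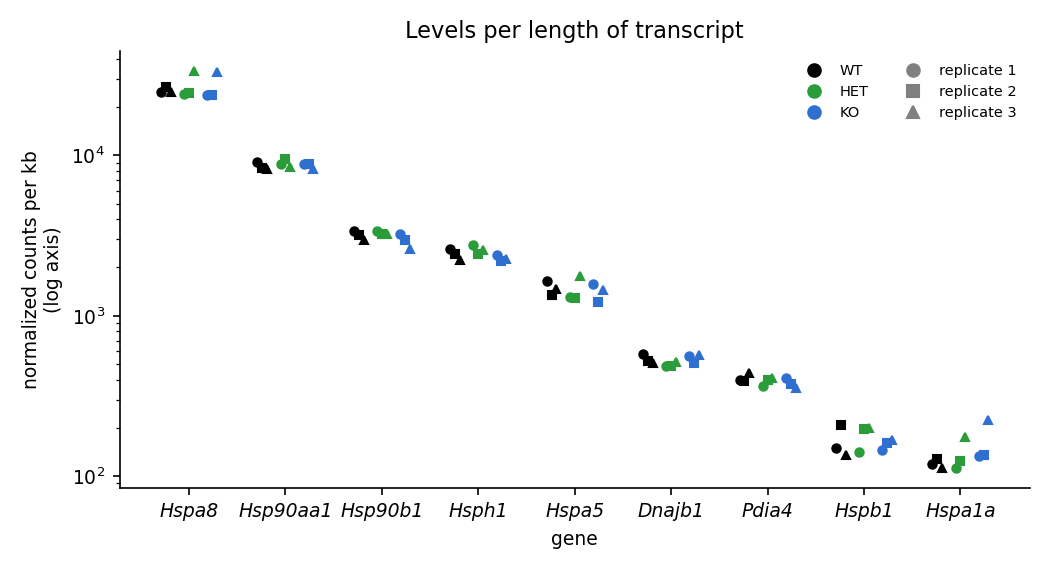
Normalized counts per kilobase of principal transcript (log axis) for the 9 genes, ordered by their WT mean, with each point a library, colours for WT, HET and KO and symbols for the replicate number. WT means run from 25428 for Hspa8 to 120 for Hspa1a, and the distance between these exceeds the spread of any 1 gene over the 9 libraries.

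None of the 9 members passed the test across all genes in any comparison of genotypes. In limma with Benjamini-Hochberg adjustment, 0 of 9 had an adjusted p under 0.05 in KO against WT, in HET against WT or in KO against HET, where the smallest adjusted p of a member was 0.999, 0.999 and 1.00. At an unadjusted p under 0.05 the count was also 0 of 9 in each. The shares of all genes at that threshold, given next, are under the 0.05 that p-values give where nothing differs. A count of 0 of 9 is therefore weak evidence of no change. Over all 14239 genes the adjusted count was 0 in each comparison (0% called), and the unadjusted p was under 0.05 for 0.822% in KO against WT, 1.11% in HET against WT and 1.31% in KO against HET (318 genes in place of 186 with the replicate number as a block, which pairs HET with KO). Groups that did not overlap were found for 1 of 9 members in KO against WT, 0 of 9 in HET against WT and 2 of 9 in KO against HET, beside 4.54%, 4.45% and 4.45% of all genes. The median log2 fold change of the members was −0.04 in KO and 0.06 in HET, against 0.0047 and −0.0027 over all genes. Without HET replicate 3 and KO replicate 3 the median of the members was −0.06 in KO and −0.02 in HET. KO and HET were set against the same 3 WT libraries. The markers of medium spiny neurons, the main neurons of the striatum, were lower in KO in 9 of 9 cases, with a median log2 fold change of −0.36 in KO and 0.02 in HET, and 0 of 9 passed an unadjusted p of 0.05 in limma. Without HET replicate 3 and KO replicate 3 their median in KO was −0.13, with 7 of 9 negative. The part of these cells in the values of the members was not tested.

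**Figure D2:**
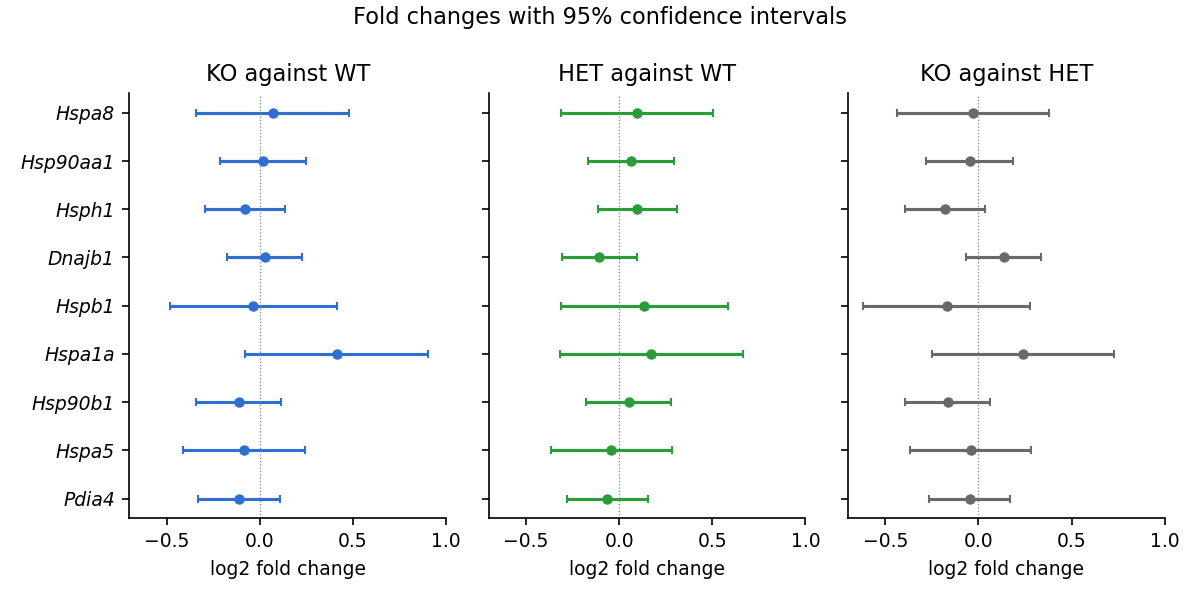
Log2 fold change of each gene (points) with its 95% confidence interval (bars) in KO against WT, HET against WT and KO against HET, from the fit over all 9 libraries. Every interval includes 0, and the interval of Hspa1a in KO against WT reaches highest, from −0.08 to 0.90.

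*Hspa1a* (ENSMUSG00000091971), a gene of 1 exon (GRCm38 chromosome 17, minus strand, 34969190 to 34972156), encodes the HSP70 that is barely made at rest and strongly induced by stress. It had 355, 377 and 333 normalized counts in the WT libraries 1 to 3, 334, 368 and 521 in the HET libraries and 396, 402 and 662 in the KO libraries. The 3 KO libraries lay above the 3 WT libraries, as 2.02% of all genes did, while HET overlapped both. The fold change in KO was 1.33 (95% confidence interval 0.948 to 1.87), with a log2 fold change of 0.41, a standard error of 0.22 and an adjusted p of 0.999 in limma. An exact two-sided permutation test gave p = 0.1, the smallest that 3 mice against 3 allow. KO replicate 3 carried much of the difference, and the log2 fold change was 0.17 without it. In HET the log2 fold change was 0.17, and it was −0.02 without HET replicate 3.

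*Hspa8* (ENSMUSG00000015656, chromosome 9, 40800984 to 40810087) encodes HSC70, which folds new proteins and strips clathrin from vesicles. The WT libraries had 59141, 64319.5 and 59161 normalized counts, the HET libraries 57910.2, 58803 and 80958, and the KO libraries 57008, 57166 and 79719. In each mutant genotype 2 libraries lay below every WT library and the third lay far above all of them. The mean was 60874 ± 2984 in WT, 65890.3 ± 13056 in HET and 64631 ± 13067 in KO (SD, n = 3), so that the coefficient of variation was 4.90% in WT, 19.8% in HET and 20.2% in KO. The log2 fold change was 0.07 in KO (95% confidence interval −0.34 to 0.48) and 0.10 in HET (−0.31 to 0.51). Without HET replicate 3 and KO replicate 3 both turned negative, to −0.09 and −0.06.

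*Hspa8* and *Hspa1a* were thus highest in the same pair of libraries. Both lay above the other 7 libraries there, which makes 2 of 9 members, against 19.2% of all genes tested, and a further 16.4% of genes lay below the other 7. Among those 7 libraries the log2 values of *Hspa8* and *Hspa1a* had a Pearson r of −0.09, so that their joint rise over the 9 libraries rested on HET replicate 3 and KO replicate 3. In that pair of libraries the summed cortical markers were 41456 and 53157 normalized counts (33237 to 49242 in the others), and the medium spiny neuron markers 112799 and 65471 (74906 to 149126 in the others). The summed choroid plexus markers were lowest in the pair, at 169 and 164 normalized counts (242 to 314 in the others), and the oligodendrocyte markers were 221249 and 124411 (145282 to 238224 in the others), so that KO replicate 3 was the lowest of all. The part of tissue composition in these values was not tested. In bulk tissue, a change in the number of cells of a type and a change in RNA per cell cannot be told apart.

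**Figure D3:**
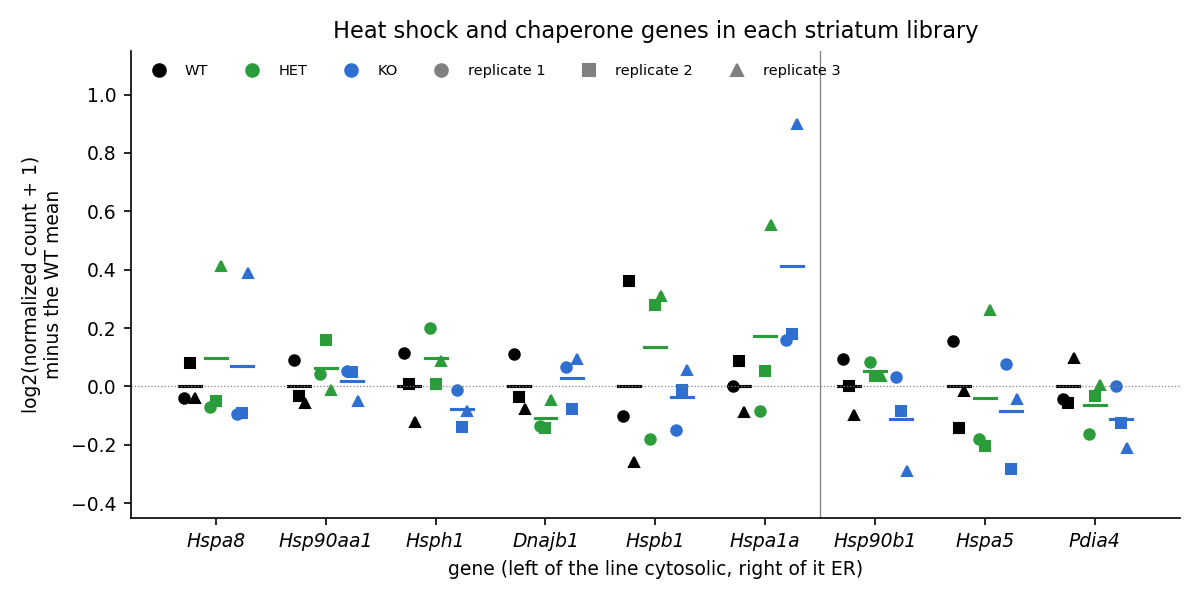
Log2(normalized count + 1) minus the WT mean of the gene, for each of the 9 genes, with points for libraries, short lines for genotype means, colours for genotypes and symbols for replicate numbers. For Hspa8 and Hspa1a the triangles of HET and KO (replicate 3) lie above all other points, while most points of the other genes lie within 0.3 of the WT mean.

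The HSP110 gene *Hsph1* (ENSMUSG00000029657, chromosome 5, minus strand, 149614287 to 149636376) releases ADP from HSP70. It had 9931, 9233 and 8430.1 normalized counts in WT, 10533, 9238 and 9751 in HET, and 9091, 8342 and 8652 in KO. All 3 KO libraries lay below all 3 HET libraries, and WT overlapped both. The log2 fold change between KO and HET was −0.18 (95% confidence interval −0.39 to 0.04, adjusted p = 1.00 in limma), with p = 0.1 in the exact two-sided permutation test. Leaving out each library in turn kept it between −0.22 and −0.13. Its unadjusted p in limma was 0.0952, and 0.0510 with the replicate number as a block (adjusted p = 0.9996). The permutation test did not pair the libraries.

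*Hsp90b1* (ENSMUSG00000020048, chromosome 10, minus strand, 86690209 to 86705509), the HSP90 of the ER, also had its KO libraries below its HET libraries. The WT libraries had 9554, 8954 and 8359 normalized counts, the HET libraries 9477, 9164 and 9173, and the KO libraries 9154, 8434 and 7323. The gap between the groups was small, since KO replicate 1 lay just under the lowest HET library. The log2 fold change between KO and HET was −0.16 (95% confidence interval −0.39 to 0.06, adjusted p = 1.00 in limma) and was −0.08 without KO replicate 3. Its unadjusted p in limma was 0.138, and 0.0727 with the replicate number as a block (adjusted p = 0.9996). KO libraries below HET libraries, found for 2 of 9 members, were found for 2.19% of all genes.

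*Hsph1* and *Hsp90b1* varied together across the 9 libraries, with a Pearson r of 0.74 and a Spearman rho of 0.90 between their log2 values, and with an r of 0.92 without HET replicate 3 and KO replicate 3. *Hspa5* and *Dnajb1* had an r of 0.57 and a rho of 0.67 over the 9 libraries, and an r of 0.85 over those 7. Over deviations from the genotype means, r was 0.58 for *Hsph1* with *Hsp90b1* and 0.79 for *Hspa5* with *Dnajb1*. *Hspa5* and *Hsp90b1*, which both hold the ER stress response element, had an r of 0.20. The libraries share their normalization, and these values are a description. By kind of pair, the 15 between cytosolic members had a median r of 0.05 and ranged from −0.53 to 0.88. The 3 between ER members ranged from 0.20 to 0.44. The 18 between a cytosolic and an ER member had a median r of −0.05 and ranged from −0.66 to 0.74. *Hsph1* with *Hsp90b1*, the highest of that kind, and *Dnajb1* with *Hspa5* were picked from these 18 after their values were seen. The cytosolic members did not share a single pattern over the libraries.

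**Figure D4:**
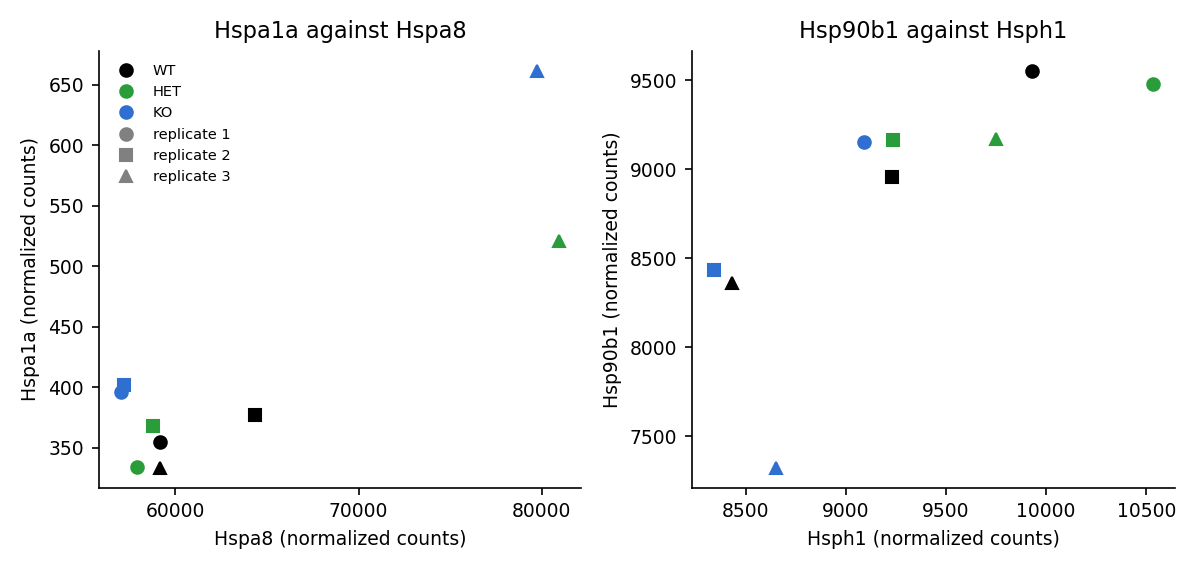
Normalized counts of Hspa1a against Hspa8 (left) and of Hsp90b1 against Hsph1 (right) in the 9 libraries, with colours for genotypes and symbols for replicate numbers. On the left 7 libraries form one group and HET replicate 3 and KO replicate 3 lie apart at high values of both genes, while on the right the libraries spread along a rising band with KO replicate 3 below it.

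*Hsp90aa1* (ENSMUSG00000021270, chromosome 12, minus strand, 110690605 to 110702728), the inducible HSP90 of the cytosol, was among the steadiest members. It had 29823, 27352 and 26885 normalized counts in WT, 28846, 31275 and 27760.1 in HET, and 29027, 28962 and 27027 in KO. The highest library exceeded the lowest by a factor of 1.16, the smallest of the 9 members, and the groups overlapped throughout. The log2 fold change was 0.02 in KO (95% confidence interval −0.22 to 0.25) and 0.06 in HET (−0.17 to 0.30). Unlike *Hspa8*, it was not raised in HET replicate 3 and KO replicate 3.

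*Dnajb1* (ENSMUSG00000005483, chromosome 8, plus strand, 83608193 to 83612653) encodes the HSP40 that brings clients to HSP70 and is a classical target of HSF1. Its normalized counts were 1731, 1561 and 1519 in WT, 1458, 1452 and 1549.7 in HET, and 1678, 1516 and 1708 in KO. HET lay toward the low end, with replicates 1 and 2 below every other library, and HET replicate 3 within the range of WT. The log2 fold change was −0.11 in HET (95% confidence interval −0.31 to 0.09), 0.03 in KO (−0.17 to 0.23) and 0.13 between KO and HET (−0.07 to 0.34).

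*Hspb1* (ENSMUSG00000004951, chromosome 5, plus strand, 135887919 to 135889563) encodes the small heat shock protein HSP25, which holds unfolding proteins without ATP. It had 135, 187 and 122 normalized counts in WT, 128, 177 and 181 in HET, and 131, 144 and 151 in KO. WT varied more than KO, with coefficients of variation of 23.3% and 7.18%, and all 3 groups overlapped. The log2 fold change was −0.04 in KO (95% confidence interval −0.48 to 0.41) and 0.14 in HET (−0.31 to 0.58). Without WT replicate 2 the value in KO turned to 0.14. The 6 vessel markers, summed, were highest in HET replicate 2 (8056 normalized counts, 5703 to 6826 in the others), and all 6 had a positive log2 fold change in HET (median 0.25, and 0.20 without HET replicate 3 and KO replicate 3). Their part in *Hspb1* was not tested.

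For the remaining ER members the libraries of the 3 genotypes overlapped. *Hspa5* (ENSMUSG00000026864, chromosome 2, plus strand, 34771970 to 34777547), the master chaperone of the ER that also holds its stress sensors inactive, had 6080.2, 4949 and 5400.3 normalized counts in WT, 4814, 4742 and 6539.7 in HET, and 5761, 4483 and 5295 in KO. Its log2 fold change was −0.08 in KO (95% confidence interval −0.41 to 0.24) and −0.04 in HET (−0.37 to 0.29). HET replicate 3 was the highest of all libraries, as it was for *Hspa8*, and KO replicate 3 was not. *Pdia4* (ENSMUSG00000025823, chromosome 6, minus strand, 47796141 to 47813430), which forms and rearranges disulfide bonds, had 951, 943 and 1049 normalized counts in WT, 876, 958 and 983 in HET, and 981, 898 and 847 in KO. Its log2 fold change was −0.11 in KO (95% confidence interval −0.33 to 0.11) and −0.06 in HET (−0.28 to 0.16). All 3 ER members had negative log2 fold changes in KO, at −0.08, −0.11 and −0.11, and each interval included 0.

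The wider chaperone system was described from lists of genes set by symbol. These lists include the members, so their counts and medians are not separate from the values above. *Hspb1* is among the small heat shock proteins, and the other cytosolic members are among the cytosolic chaperones. The ER members are among the ER chaperones. Among 24 cytosolic chaperones tested, 0 passed the adjusted threshold in KO or HET in limma. At an unadjusted p under 0.05 there were 0 in KO and 1 in HET, beside 0.822% and 1.11% of all genes. The 1 gene in HET was *Dnajb2*, a neuronal HSP40, with 2393, 2260.2 and 2512 normalized counts in WT and 2645, 2805 and 2739 in HET. Its 3 HET libraries lay above the WT libraries (log2 fold change 0.19, adjusted p = 0.999 in limma). Groups of HET and WT that did not overlap, in either direction, were found for 4.45% of all genes. The other chaperone lists had 0 genes at either threshold in KO or HET. They were 7 small heat shock proteins, 18 cochaperones, 19 ER chaperones and folding enzymes, 16 regulators of the unfolded protein response and ER degradation, 9 mitochondrial chaperones, 8 subunits of the chaperonin TRiC and 5 genes of heat shock factors and their binding protein. The median log2 fold change of the ER chaperones was −0.08 in KO and −0.04 in HET, with 14 and 11 of 19 genes negative, beside 6885 and 7218 of 14239 genes in all. Their median was, without HET replicate 3 and KO replicate 3, −0.05 in KO and 0.0028 in HET, with 17 and 9 of 19 genes negative.

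**Figure D5:**
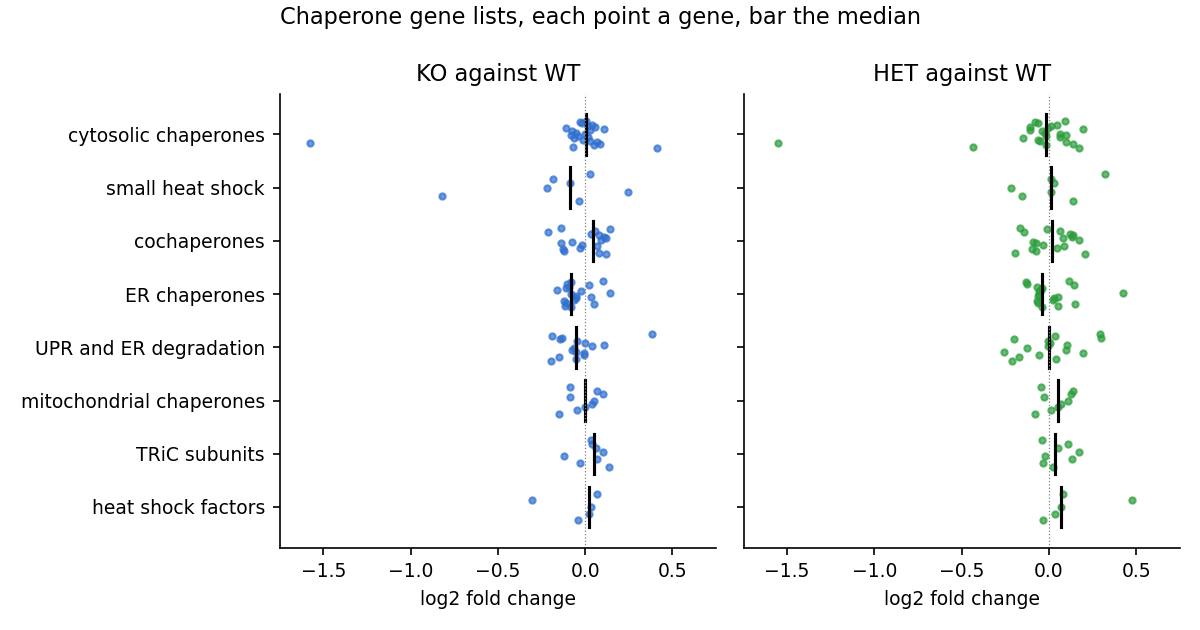
Log2 fold changes in KO against WT (left) and HET against WT (right) of the genes in 8 chaperone lists, each point a gene and each black bar the median of the list. The medians lie between −0.08 and 0.07, and the point near −1.6 in both panels is Hspa4l.

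Other genes of these lists are given with their log2 fold change over all 9 libraries and, after it, without HET replicate 3 and KO replicate 3. *Cryab* (alpha-B crystallin), a small heat shock protein of oligodendrocytes and astrocytes, had 0.32 in HET (standard error 0.16), and 0.41 without the pair, where the unadjusted p was 0.00424 and the adjusted p 1.00 in limma. In KO it had 0.03 and then 0.21. The 5 oligodendrocyte markers all had a positive log2 fold change in HET (median 0.33), their sum lay between 203145 and 231700 normalized counts in HET and between 145282 and 238224 in WT, and their part in *Cryab* was not tested.

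The HSP90 cochaperones *Ahsa1* and *Fkbp4* had 3 HET libraries above the 3 WT libraries. *Ahsa1* had a log2 fold change of 0.17 in HET, and 0.12 without the pair, and *Fkbp4* had 0.12 and then 0.09. The chaperonin subunit *Cct4* had 3 KO libraries below the 3 WT libraries, with −0.12 in KO and then −0.06. Such separation from WT was found for 4.45% of all genes in HET and 4.54% in KO. The unadjusted p was above 0.05 for *Ahsa1*, *Fkbp4* and *Cct4* in limma. *Tcp1*, another chaperonin subunit, had 0.14 in KO and then 0.15.

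Several differences were smaller or changed sign without the pair. *Xbp1*, a transcription factor of the unfolded protein response, had −0.20 in KO and −0.21 in HET, and −0.08 in both without it. *Hspd1*, the mitochondrial chaperonin HSP60, had −0.15 in KO and then −0.05, and −0.08 in HET and then 0.08. *Dnajb11*, an HSP40 of the ER lumen and partner of BiP, had −0.16 in KO and then −0.05. *Hspb2* had −0.82 in KO and then −0.51, at low values of 4.16 to 12.0 normalized counts in KO and 9.08 to 16.7 in WT. *Hsf5* was the one list gene with an unadjusted p under 0.05 in KO against HET, at 8.35 to 14.0 normalized counts in KO and 16.3 to 26.7 in HET (log2 fold change −0.78, adjusted p = 1.00 in limma), and its log2 fold change was −0.39 without the pair, at an unadjusted p of 0.347 and an adjusted p of 1.00 in limma.

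HET replicate 3 and KO replicate 3 differed from the other libraries for many chaperone genes, and in both directions. The genes named here were chosen after their values were seen. The HSP110 relative *Hspa4* had 11173 and 9671 normalized counts in that pair and 6378 to 7303 in the other 7 libraries. The ER cochaperone *Sdf2l1* had 568 and 402 against 189 to 265, and *Ppp1r15a* (GADD34), which reverses the translation block of the stress response, had 1010.3 and 1067 against 385 to 571. Lower in the pair were *Xbp1*, with 1410.3 and 1447 normalized counts against 1706 to 2053, *Hspd1*, with 3252 and 3343 against 3908 to 4858, and the HSP90 cochaperone *Stip1*, with 3227 and 3558 against 3907 to 4376. *Hspa4l*, another HSP110 relative, was listed at 0 in both and at 42.0 to 275 in the others, and a value of 0 there can come from the estimate of abundance.

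Counted over the lists, the pair lay outside the other 7 libraries for 13 of 18 cochaperones (6 above and 7 below), 10 of 19 ER chaperones (5 above and 5 below), 10 of 16 unfolded protein response genes (3 above and 7 below), and 5 of 9 mitochondrial chaperones (4 above and 1 below). It did so for 5 of 24 cytosolic chaperones (3 above and 2 below), 2 of 7 small heat shock proteins (both below), 3 of 8 subunits of TRiC (all above) and 1 of 5 genes of heat shock factors and their binding protein (above). The same held for 35.6% of all genes tested. The members *Hspa1a* and *Hspa8* are among the 3 cytosolic chaperones above the other 7 libraries. *Dnajb1*, *Hsph1* and *Hsp90aa1* lay inside the range of the other 7 libraries in both.

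The genes whose pattern was most like the mean log2 value of the 6 cytosolic members over the 9 libraries were *Nsun2*, *Fsd1*, *Tspan12*, *Plxnd1* and *Ccdc149*, with Pearson r between 0.97 and 0.98 and, without HET replicate 3 and KO replicate 3, between 0.91 and 0.96. For the 3 ER members they were *Havcr2*, *Cul4a*, *Dnajb4*, *Cysltr1* and *Eif2ak3*, with r between 0.87 and 0.91 over the 9 libraries and between 0.82 and 0.87 over the 7. The genes were chosen for the highest r over the 9 libraries among the genes tested that are not members. The values over the 7 libraries are for these same genes, were not ranked, and are no separate check, since the 7 are part of the 9. The 6 cytosolic members did not share a single pattern, so a high r with their mean is not likeness to each of them. All these values come from few libraries that share their normalization, and they are a description.

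Immediate early genes and genes that respond to glucocorticoids or hypoxia were followed beside the members, as they respond to neuronal activity and to systemic stress. Of 14 immediate early genes, 12 had a positive log2 fold change in KO (median 0.14) and 5 in HET (median −0.08), beside 7354 and 7021 of all 14239 genes, and 0 passed an unadjusted p of 0.05 in either in limma. The medians were 0.25 and −0.21 without HET replicate 3 and KO replicate 3. There 0 of 14 in KO and 1 of 14 in HET had an unadjusted p under 0.05 in limma. In KO against HET, 13 of 14 were positive (median 0.25), beside 7065 of all 14239 genes. Without the pair that median was 0.42, and 4 of 14 had an unadjusted p under 0.05 in limma, beside 227 of all genes. The list sums lay between 36210.3 and 44322 normalized counts in WT, between 33665 and 50895 in HET and between 38335 and 52658 in KO. *Arc*, a synaptic immediate early gene, had a log2 fold change of 0.31 in KO, and 0.25 without the pair, and *Nr4a1* had 0.32 and then 0.27, each with an adjusted p of 0.999 in limma over all libraries. In HET, *Fosb* had −0.38 and then −0.27, and *Npas4* had −0.33 and then −0.44. Of the 12 genes of the other list, 11 had a positive log2 fold change in KO and 10 in HET, and 0 had an unadjusted p under 0.05 in either. *Plin4*, a lipid droplet protein, had a log2 fold change of 0.71 in KO (standard error 0.33) and 0.31 in HET, and *Vegfa* had 0.30 in HET (standard error 0.15). Without the pair *Plin4* was at 1.09 in KO, with an unadjusted p of 0.00247 and an adjusted p of 1.00 in limma. Their part in the values of the chaperone genes was not tested.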

How the data were processed

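Striatal RNA of 3 WT, 3 HET and 3 KO male mice was sequenced as 1 library per mouse. The deposited signal is a normalized count per gene. The authors ran Salmon 0.9.1 on GRCm38 (GC bias corrected), summed transcripts to genes by tximport and scaled by DESeq2 1.19.11 (R 3.6.0). Libraries were assigned to genotypes from their titles, and 0 columns were left unused. Low values were not multiples of a common step, so that whole reads were not recovered, the depth in reads is unknown, and no interval from counting error is given. The p-values measure the spread between these mice.

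Tests used log2(normalized count + 1), a scale that understates changes of low genes. The 14239 genes past the filter entered a single trended limma model (limma 3.58.1, R 4.3.3) of genotype over the 9 libraries, without covariates and with Benjamini-Hochberg adjustment over all genes and a threshold of 0.05. Confidence intervals are at 95%. For members, an exact permutation test, two-sided, was added (SciPy 1.17.1). Symbols were found for 15457 genes. Coordinates and transcript lengths come from GENCODE M21 (GRCm38), and the longest principal protein-coding transcript gave the length. The fit was tested on simulated data. Figures were drawn with matplotlib 3.10.9.

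The members and lists were chosen with earlier results of these data known. Genes named are the members, *Shank3*, the 2 genes of each list with the smallest unadjusted p in KO and in HET, and the 5 most like each group of members. Not all of these are printed, and where a gene falls outside this rule its values had been seen. The rule counted *Hspa1b* as the seventh cytosolic member, and 6 were used. The alternatives were other pseudocounts, no filter, rescaling, quantile normalization, other variance priors, fits of the compared genotypes alone, a replicate block, and leaving out libraries.

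Deviations from the genotype means correlated between same-numbered HET and KO libraries at 0.52, 0.28 and 0.51, which was taken as pairing. What the numbers stand for is not given in the sources used here.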

Additional observations from a re-analysis of the deposited data

Results flagged for a closer look

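*Hsph1* was singled out because every KO library lay below the WT mean and every HET library above it. The rule was applied to the members only, and the share of all genes that meet it was not counted. HET replicate 2 and KO replicate 1 lay close to the WT mean of the log2 values, at 0.0095 and −0.014 from it. Its log2 fold change in KO against HET was −0.18 (adjusted p = 1.00 in limma, unadjusted p = 0.0952), and that test of the difference did not pass the threshold. Normalized counts were 9091, 8342 and 8652 in KO and 10533, 9238 and 9751 in HET, against a WT mean of 9198. Groups of 3 libraries were not searched for single outlying values.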

How the results depend on the processing

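Under every alternative run, 0 genes and 0 members had an adjusted p under 0.05 in any of the 3 comparisons. The number at an unadjusted p under 0.05 was 176 in KO against WT without trend in the variance prior, against 117. With the replicate number as a block it was 310 in KO against WT, 365 in HET against WT and 318 in KO against HET, and 1 member (*Hspa1a*, unadjusted p = 0.0445, adjusted p = 0.999 in limma) passed in KO against WT. The block changed no other call of a member. Same-numbered libraries deviated together at 0.24, −0.22 and 0.02 for WT and KO and at 0.32, −0.014 and 0.0054 for WT and HET, and 2 of 6 libraries in each pair of genotypes correlated best with their own number (6 of 6 for HET and KO). Without HET replicate 3 and KO replicate 3 it was 219 in KO against WT and 275 in HET against WT. Leaving out single libraries, it ran from 72 (without WT replicate 2) to 292 (without WT replicate 3) in KO against WT, from 119 to 394 in HET against WT and from 141 to 303 in KO against HET.

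Signs changed for small differences. Without HET replicate 3 and KO replicate 3, the log2 fold change was −0.0054 for *Dnajb1* and −0.092 for *Hspa8* in KO against WT, −0.017 for *Hspa1a* and −0.060 for *Hspa8* in HET against WT, and 0.089 for *Hspa5* and 0.035 for *Pdia4* in KO against HET. With quantile normalization *Hspa8* was at 0.039 in KO against HET. Leaving out single libraries, the ranges in KO against WT were −0.011 to 0.084 for *Dnajb1*, −0.16 to 0.14 for *Hspb1*, −0.092 to 0.15 for *Hspa8*, −0.012 to 0.063 for *Hsp90aa1* and −0.16 to 0.017 for *Hspa5*. In HET against WT they were −0.017 to 0.30 for *Hspa1a*, −0.060 to 0.18 for *Hspa8*, −0.19 to 0.040 for *Hspa5* and −0.075 to 0.20 for *Shank3*. In KO against HET they were −0.0045 to 0.43 for *Hspa1a*, −0.19 to 0.13 for *Hspa8*, −0.085 to 0.0013 for *Hsp90aa1*, −0.12 to 0.11 for *Hspa5* and −0.10 to 0.0014 for *Pdia4*. The cause of these changes was not tested. The sum of *Hspa1a* and *Hspa1b* was not run, since *Hspa1b* was not analysed here.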
